A study of Mus musculus with 6 samples.

Results

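The miR-130 and miR-301 family is a set of microRNAs (miRNAs, short RNAs that repress messenger RNAs) that carry the same seed, the stretch of bases that pairs with a target. Here it was followed through 4 mature miRNAs of mouse ulcer skin, written with the prefix mmu for mouse in the table and without it below: mmu-miR-130a-3p, mmu-miR-130b-3p and mmu-miR-301a-3p, which are guide strands of the family, and mmu-miR-130b-5p, the strand opposite miR-130b-3p in the same hairpin. They are 4 of the 649 entries of the deposited count table, each found by its name. miR-130b-5p was selected on its values in the comparison of diabetic with normal ulcer, as 1 of the miRNAs with the smallest p over all deposited columns, and its relatives were taken with it, their values known. Differences of the members between the groups are therefore given as a description, without a test.

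In each miRNA hairpin, 2 strands are cut out, the 5p arm and the 3p arm. Usually 1 of them is kept as the guide in an Argonaute protein, and the passenger strand is mostly degraded. The guides of this family are known as repressors of PPARγ, the nuclear receptor that drives fat cell formation and restrains vascular growth, and as regulators of vascular cell proliferation and matrix stiffening in pulmonary hypertension. In human endothelial cells miR-130a represses the anti-angiogenic homeobox genes GAX and HOXA5.

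The study sequenced small RNA of ulcerated skin from mice labelled C57, a name for a group of inbred strains. The sample titles give no closer strain name. Its 6 samples, labelled day 14, are 3 of normal ulcer and 3 of diabetic ulcer. The labels do not say how diabetes was induced, how the ulcer was made, how old the mice were or whether samples were separate animals. Groups follow the sample titles; the headers of the authors' deposited table call the normal ulcer columns the case and the diabetic ulcer columns the control, so every direction below rests on the titles.

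The table held between 8949104 and 13421603 miRNA counts per library. The columns numbered 3 followed from the others: the sum of 0.500 times the count of sample 1 and 0.506 times that of sample 2 gave the normal ulcer column 3 to within 1 read in 634 of its 638 detected miRNAs, all 4 members included. The diabetic ulcer column 3 repeated the count of sample 1 or 2 for 287 of 308 miRNAs in which those counts were under 60 and unequal, and for 3 of the 4 members it repeated that of sample 2. Values are thus given for 4 libraries, normal ulcer 1 and 2 (NU1 and NU2) and diabetic ulcer 1 and 2 (DU1 and DU2). Shares of cell type marker miRNAs differed between libraries of the same group. The 4 muscle miRNAs (miR-1a-3p, miR-133a-3p, miR-206-3p and miR-499-5p) made up 17.1% and 66.0% of counts in NU1 and NU2. In DU1 and DU2 they made up 35.6% and 44.8%, and miR-499-5p had 0 counts in NU1. The 7 keratinocyte miRNAs, which mark skin epithelium, were all counted and made up 6.99%, 1.44%, 5.09% and 1.96% in NU1, NU2, DU1 and DU2. How far these shares follow tissue makeup was not tested. Counts were put on a common scale as counts-per-million after TMM scaling (TMM CPM), which limits the influence of such dominant miRNAs.

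The guide strands of the family are shown because the shared seed, in capitals (bases 2 to 8 from the 5′ end), is what joins them.
miR-130a-3p: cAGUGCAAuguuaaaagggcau
miR-130b-3p: cAGUGCAAugaugaaagggcau
miR-301a-3p: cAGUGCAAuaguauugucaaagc
miR-301b-3p: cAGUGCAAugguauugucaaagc
The seed AGUGCAA was found in these 4 entries of the table and in no other. Counted from the 5′ end, miR-130b-3p differs from miR-130a-3p by U11A and A13G over 22 bases, and miR-301b-3p differs from miR-301a-3p by A10G over 23 bases. How the authors assigned reads that could belong to either of such a pair is not given in the sources used here, so part of the rarer partner's counts may be shared.

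The strands opposite the guides are shown with the exact complement of the family seed, UUGCACU, in capitals where they hold it.
miR-130a-5p: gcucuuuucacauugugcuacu
miR-130b-5p: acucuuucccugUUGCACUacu
miR-301a-5p: gcucugacuuuaUUGCACUacu
The letters UUGCACU are present in miR-130b-5p and miR-301a-5p and absent from miR-130a-5p, and they occur in 5 of all 649 entries (0.770%). The 5p strands have seeds of their own: CUCUUUU for miR-130a-5p, then CUCUUUC for miR-130b-5p, and for miR-301a-5p the letters CUCUGAC.

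The hairpins that give the members are printed with both mature arms in capitals, the 5p arm before the 3p arm, since the hairpins differed in the balance of their arms.
Mir130a: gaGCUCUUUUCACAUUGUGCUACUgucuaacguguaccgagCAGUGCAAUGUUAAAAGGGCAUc
Mir130b: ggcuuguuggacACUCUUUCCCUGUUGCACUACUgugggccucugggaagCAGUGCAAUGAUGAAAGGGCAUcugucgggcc
Mir301: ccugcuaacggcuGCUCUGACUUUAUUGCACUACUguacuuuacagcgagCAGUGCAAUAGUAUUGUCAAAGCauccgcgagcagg
Sequences and places are RefSeq's on GRCm38.p6, and each mature sequence matched the deposited one. The sequence of miR-301b-3p was taken from the deposited table, with U for T. Mir130a lies at chr2:84741115-84741178 on the minus strand, outside annotated genes other than miRNAs, 991 bases from the protein-coding Gm19426. Mir130b lies at chr16:17124061-17124142 on the minus strand, in an intron of 2610318N02Rik, and Mir301b at chr16:17124400-17124496 in an intron of the same gene on the same strand, 257 bases away. Mir301, which gives miR-301a, lies at chr11:87113004-87113089 on the plus strand, in an intron of Ska2, a gene of the mitotic spindle.

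The family was a minor part of the miRNA pool, and miR-130a-3p supplied nearly all of its guides. miR-130a-3p had 688 and 375 counts in NU1 and NU2 and 520 and 530 counts in DU1 and DU2. It took 91.4% (95% Wilson interval 89.1 to 93.2), 87.0% (83.5 to 89.9), 88.1% (85.3 to 90.5) and 85.3% (82.3 to 87.9) of the reads with the family seed in these libraries. miR-130b-3p took 6.51%, 9.28%, 6.78% and 12.2%, miR-301a-3p took 1.73%, 2.32%, 3.22% and 1.93%, and miR-301b-3p took the rest. Amplified reads are not separate molecules, so these intervals, and all others here, speak for counting error alone. By mean TMM CPM over the 4 libraries, miR-130a-3p ranked 167 of 649, miR-130b-3p 310, miR-130b-5p 340 and miR-301a-3p 416.

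The order of the levels was miR-130a-3p, miR-130b-3p, miR-130b-5p and miR-301a-3p, with means over the 4 libraries of 49.5, 4.87, 3.40 and 1.28 TMM CPM. Each count is a read of a mature miRNA of nearly equal length, so no length correction applies, but ligation efficiency can differ between sequences and its effect on this order was not tested. The gap between miR-130a-3p and miR-130b-3p was far larger than the spread between libraries: the ratio of their counts was 14.04 and 9.38 in NU1 and NU2 and 13.0 and 6.97 in DU1 and DU2. miR-130b-3p and miR-130b-5p overlapped, and in DU1 the 5p strand had more counts (42) than the 3p strand (40). The lowest miR-130b-5p level, 1.91 TMM CPM in NU2, lay above the highest miR-301a-3p level, 1.72 in DU1, though counting intervals of these values overlapped (1.09 to 3.10 and 1.03 to 2.68).

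**Figure D1:**
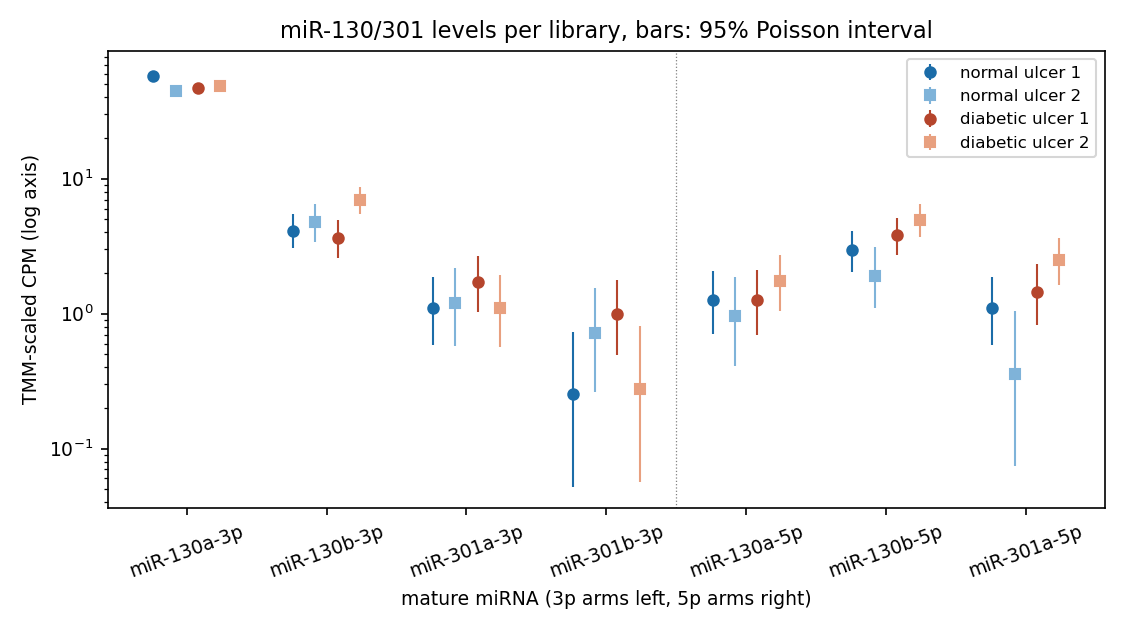
TMM-scaled CPM (log axis) of the 7 family strands found in the table, in NU1 and NU2 (blue) and DU1 and DU2 (red), with 95% Poisson intervals for counting error. miR-130a-3p lies near 50 in every library, while the other strands lie below 10. For the 3 strands of the 5p side DU1 and DU2 lie at or above NU1 and NU2. Over all 443 tested miRNAs 40 (9.03%) had DU1 and DU2 above. miR-130b-5p was chosen for its difference between the groups, and for miR-130a-5p NU1 and DU1 are nearly equal.

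Between the groups, the levels of the most abundant guide overlapped. miR-130a-3p had 57.8 and 44.7 TMM CPM in NU1 and NU2 and 47.0 and 48.7 in DU1 and DU2. Both diabetic libraries lay between the normal ones, so the groups overlapped. The group means were 51.3 ± 9.22 and 47.8 ± 1.18 TMM CPM (SD, n = 2), and the log2 difference, diabetic minus normal, was -0.10 ± 0.28 (SE) in edgeR. That value took a positive sign with library totals (0.0048), with deposited TPM (0.0067 and 0.0092) and without NU1 (0.09). In a tissue sample, fewer cells that make a miRNA and less of it per cell cannot be told apart.

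miR-130b-3p, which shares its target seed with miR-130a-3p, was highest in DU2. It had 49 and 40 counts in NU1 and NU2 and 40 and 76 counts in DU1 and DU2, which gave 4.12, 4.77, 3.61 and 6.98 TMM CPM. DU1 held the lowest of these values and DU2 the highest, so the normal libraries lay between the diabetic ones. On the library totals alone NU2 was the lowest, with 5.48 and 2.98 CPM in NU1 and NU2 and 4.30 and 7.06 CPM in DU1 and DU2. The means were 4.44 ± 0.465 and 5.30 ± 2.38 TMM CPM (SD, n = 2), with a log2 difference of 0.25 ± 0.44 (SE). Without DU2 the log2 difference was -0.23, and without DU1 it was 0.66.

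miR-301a-3p, the guide from the Ska2 intron, was rare and showed no separation of the groups. It had 13 and 10 counts in NU1 and NU2 and 19 and 12 counts in DU1 and DU2, or 1.09, 1.19, 1.72 and 1.10 TMM CPM. DU1 stood above the rest, and DU2 lay between the normal libraries. The means were 1.14 ± 0.0717 and 1.41 ± 0.435 TMM CPM (SD, n = 2), and the log2 difference of 0.31 ± 0.50 (SE) became -0.04 without DU1.

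The 5p strand of miR-130b was the member with the largest difference. It had 35 and 16 counts in NU1 and NU2 and 42 and 54 counts in DU1 and DU2, or 2.94, 1.91, 3.79 and 4.96 TMM CPM. DU1 and DU2 both exceeded NU1 and NU2, with counting intervals that overlapped between NU1 (2.05 to 4.09) and each diabetic library (2.73 to 5.13 and 3.72 to 6.47). The means were 2.42 ± 0.729 and 4.38 ± 0.822 TMM CPM (SD, n = 2), a ratio of 1.805 and a log2 difference of 0.83 ± 0.41 (SE). The log2 difference was between 0.57 and 0.92 under the other tools, scalings, filters and units. It was 1.18 without NU1 and 0.68 without NU2. Of the 443 miRNAs tested, 40 (9.03%) had DU1 and DU2 above NU1 and NU2 and 53 (12%) had them below. Among the members miR-130b-5p was in the former class and none was in the latter; this is the pattern for which the member was chosen, so nothing is read from that count.

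Over all 443 tested miRNAs, edgeR's quasi-likelihood test called 0 (0%) at an adjusted p under 0.05 and gave 4 (0.903%) an unadjusted p under 0.05. DESeq2, run without that filter over 649 miRNAs, and limma-voom, over 443, also called 0, with 4 each at an unadjusted p under 0.05. No member was called under any tool or setting run. In the ranking of all 443 log2 differences from the highest, miR-130b-5p stood at 12, miR-301a-3p at 80, miR-130b-3p at 96 and miR-130a-3p at 280. The median log2 difference of all tested miRNAs was -0.02.

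**Figure D2:**
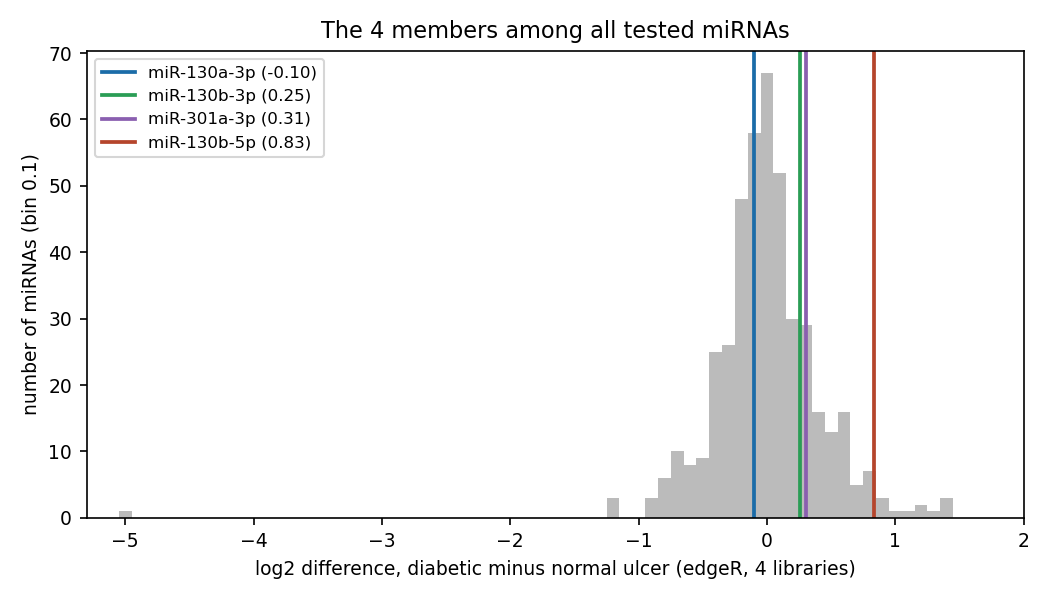
Histogram of the edgeR log2 difference, diabetic minus normal ulcer, for the 443 tested miRNAs over 4 libraries, in bins of 0.1, with the 4 members as vertical lines. miR-130a-3p (-0.10), miR-130b-3p (0.25) and miR-301a-3p (0.31) fall in the body of the distribution, and miR-130b-5p (0.83) in its upper tail.

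Of the 4 listed strands opposite the family's guides 3 were in the table, miR-130b-5p among them, and 0 of 3 passed the test. The other two, which are no members, had positive log2 differences, as had 211 of all 443 tested miRNAs. miR-301a-5p had 13 and 3 counts in NU1 and NU2 and 16 and 27 counts in DU1 and DU2, or 1.09, 0.358, 1.45 and 2.48 TMM CPM. DU1 and DU2 both exceeded NU1 and NU2, as for 40 (9.03%) of all 443 tested miRNAs. The NU2 value rests on 3 counts. Counting intervals overlapped between NU1 (0.581 to 1.87) and each diabetic library (0.826 to 2.35 and 1.63 to 3.61). The log2 difference of miR-301a-5p, 1.36 ± 0.66 (SE), ranked 3 of 443. miR-130a-5p had 15, 8, 14 and 19 counts in that order, or 1.26, 0.955, 1.26 and 1.74 TMM CPM, so NU1 and DU1 were nearly equal. Its log2 difference was 0.42 ± 0.49 (SE). On the library totals alone, miR-130a-5p overlapped between the groups, with 1.68 and 0.596 CPM in normal ulcer and 1.50 and 1.77 CPM in diabetic ulcer. miR-301b-5p, the remaining strand, was not in the table.

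Of the 6 guides on the list, 4 were in the table and 3 were tested, and 0 of 3 passed. The log2 difference was positive for 2 and negative for 1, with a median of 0.25. Over all 443 tested miRNAs it was positive for 211 and negative for 232, with a median of -0.02, and 0 passed. miR-301b-3p, whose hairpin lies 257 bases from Mir130b, was too rare to be tested, with 3 and 6 counts in NU1 and NU2 and 11 and 3 counts in DU1 and DU2. At these counts no order of the libraries can be read. miR-130c and miR-721 were not in the table.

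The balance of the arms, which is a ratio within a library and so needs no scaling, separated the hairpins. For miR-130a the 5p arm was a trace, at 2.13% of both arms in NU1 (95% Wilson interval 1.30 to 3.49), 2.09% in NU2 (1.06 to 4.07), 2.62% in DU1 (1.57 to 4.35) and 3.46% in DU2 (2.23 to 5.34). For miR-130b it was 41.7% in NU1 (31.7 to 52.3), 28.6% in NU2 (18.4 to 41.5), 51.2% in DU1 (40.6 to 61.7) and 41.5% in DU2 (33.4 to 50.1). In every library the interval of miR-130b lay wholly above that of miR-130a. For miR-301a the 5p arm was 50.0%, 23.1%, 45.7% and 69.2% of 26, 13, 35 and 39 reads in the same order of libraries, and its interval overlapped that of miR-130b in NU1, NU2 and DU1 and lay above it in DU2 (53.6 to 81.4). Pooled over the 4 libraries the 5p arm held 2.58% of 2169 reads for miR-130a, 41.8% of 352 reads for miR-130b and 52.2% of 113 reads for miR-301a.

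Most hairpins of the table were less balanced than miR-130b. Of 150 hairpins with both arms listed and at least 20 reads over both arms in each library, the minor arm held a median of 4.78% of reads, and it held at least 20% in 37 hairpins (24.7%). miR-130b ranked 8 of 150 by the share of its minor arm and miR-130a ranked 86. miR-301a fell short of 20 reads in NU2 and was not ranked.

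Between the groups, the mean 5p share of miR-130b was 35.1% ± 9.26 in the normal group and 46.4% ± 6.85 in the diabetic group (SD, n = 2), 11.3 percentage points apart. The groups overlapped, since NU1 (41.7%) and DU2 (41.5%) were nearly equal, and library 1 lay above library 2 in both groups. Leaving out 1 library moved the difference to 17.8 points without NU1, 4.71 without NU2, 6.42 without DU1 and 16.1 without DU2. In percentage points the difference over all 4 libraries was the largest rise among the 150 hairpins, where the quartiles of the difference were -1.21 and 0.442; a share near 0% or 100% can move little in points, and by the log2 odds of the arms (0.68) miR-130b ranked 10. The 5p share of DU1 and DU2 exceeded that of NU1 and NU2 for 19 of the 150 hairpins (12.7%) and lay below it for 30 (20%). miR-130a was in the former class, with means of 2.11% ± 0.0318 and 3.04% ± 0.593 (SD, n = 2), and miR-130b was in neither. These shares use the same counts that chose the members and are a description.

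**Figure D3:**
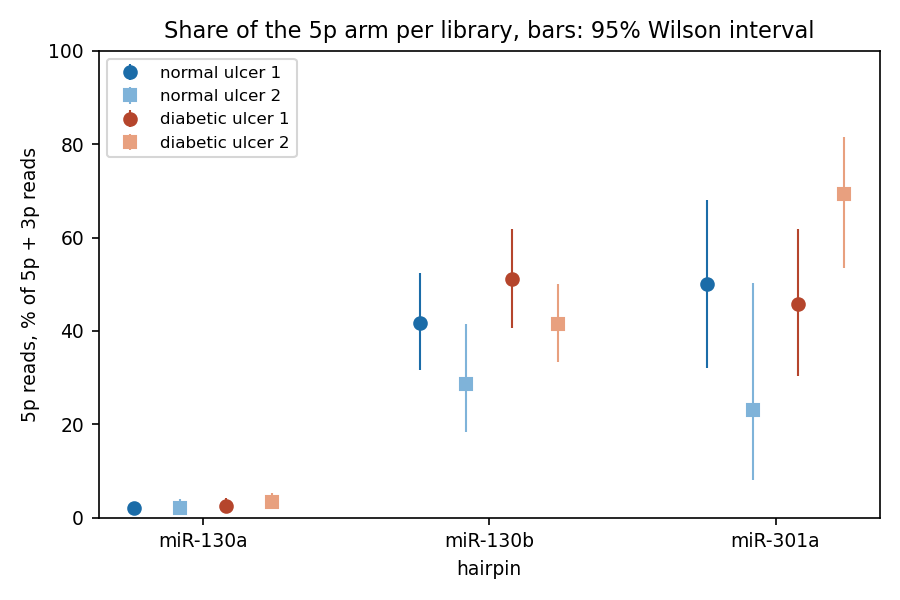
Share of 5p reads among the 5p and 3p reads of the hairpins of miR-130a, miR-130b and miR-301a, in percent, in each of the 4 libraries, with 95% Wilson intervals. miR-130a lies between 2.09% and 3.46%, whereas miR-130b lies between 28.6% and 51.2%, with NU1 and DU2 nearly level.

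The ratio between the family's main guides differed between libraries of the same group. miR-130b-3p was 6.65% of the sum of miR-130a-3p and miR-130b-3p in NU1 (95% Wilson interval 5.07 to 8.68) and 7.14% in DU1 (5.29 to 9.58). It was 9.64% in NU2 (7.16 to 12.9) and 12.5% in DU2 (10.1 to 15.4). The libraries numbered 1 were thus the lower in each group, and the groups overlapped. The libraries numbered 1 also had the lower muscle share and the higher keratinocyte share of each group, at the values given above; the part of tissue makeup in this ratio was not tested.

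The sums of some other cell type marker lists had the order of libraries of some members. A sum follows mostly its most abundant miRNAs, and whether each marker kept that order was not examined. In the leukocyte list 4 miRNAs had positive and 1 negative log2 differences. In the endothelial list these numbers were 2 and 2, and in the fibroblast and smooth muscle list 1 and 4. Over all 443 tested miRNAs they were 211 and 232. The summed level of 5 leukocyte miRNAs was 739 and 891 TMM CPM in normal ulcer and 624 and 1398 in diabetic ulcer. For 4 endothelial miRNAs it was 12470 and 16480 in normal ulcer and 10551 and 18957 in diabetic ulcer. All these miRNAs were counted in every library. In both lists DU1 was lowest and DU2 highest by TMM CPM, as for miR-130b-3p by the same measure. The part of these cell types in the levels of miR-130b-3p was not tested. For 5 fibroblast and smooth muscle miRNAs the sums were 50656 and 42116 in normal ulcer and 43549 and 50434 in diabetic ulcer. By TMM CPM this put the libraries in the same order as miR-130a-3p (NU2 lowest, then DU1, DU2 and NU1). The part of these cell types in the levels of miR-130a-3p was not tested either. For 3 erythroid miRNAs the sums were 592 and 1586 in normal ulcer and 926 and 1044 in diabetic ulcer.

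Likeness of the members' course over the 4 libraries to that of other miRNAs was measured as the root mean square difference of log2 CPM after each miRNA was centred on its mean, over miRNAs with a mean of at least 10 TMM CPM. The nearest to miR-130a-3p were miR-143-5p (0.0274), miR-146b-5p (0.0328) and miR-21a-5p (0.0349). miR-21a-5p, which is induced in healing skin, had 34427 and 28504 TMM CPM in normal ulcer and 28538 and 29993 in diabetic ulcer. The nearest to miR-130b-3p were miR-340-5p (0.068), miR-126b-5p (0.0883) and miR-192-5p (0.0962). miR-126b-5p had 17.5, 23.4, 16.4 and 33.7 TMM CPM in NU1 and NU2 and DU1 and DU2. The nearest to miR-130b-5p were miR-148a-5p (0.12), miR-107-3p (0.239) and miR-370-3p (0.243), and the nearest to miR-301a-3p were miR-455-5p (0.0755), miR-532-3p (0.119) and miR-23a-3p (0.12). miR-148a-5p, itself the lesser strand of its hairpin, had 74.8, 49.4, 77.7 and 109 TMM CPM in the same order of libraries. The median over the miRNAs compared was 0.255 for miR-130a-3p, 0.410 for miR-130b-3p, 0.538 for miR-130b-5p and 0.357 for miR-301a-3p. Between members the value was 0.319 to 0.524, and it was 0.466 for both strands of miR-130b, a range that lies across these medians. With 4 libraries, close courses are easily found among many miRNAs.

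A part of the family's seed also occurs in other miRNAs, most of them more abundant. The seeds of the miR-148/152 family and of miR-19, given here in capitals for comparison, are offset from AGUGCAA by 1 base to either side, and all hold GUGCA.
miR-148a-3p: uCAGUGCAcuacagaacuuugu
miR-148b-3p: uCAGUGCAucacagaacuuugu
miR-152-3p: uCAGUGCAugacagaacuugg
miR-19a-3p: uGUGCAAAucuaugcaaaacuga
miR-19b-3p: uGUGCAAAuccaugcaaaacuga
The 4 guides with the family seed summed to 63.2 and 51.4 TMM CPM in NU1 and NU2 and to 53.3 and 57.004 in DU1 and DU2. The 3 miRNAs with seed CAGUGCA summed to 56307 and 38131 in normal ulcer and 43126 and 64640 in diabetic ulcer, 899 times as much by the mean of the groups. The 2 miRNAs with seed GUGCAAA summed to 345 and 236 in normal ulcer and 175 and 160 in diabetic ulcer, 4.07 times the sum of the 4 guides. Within that pair miR-19a-3p had a mean of 11.4 TMM CPM over the 4 libraries, below that of miR-130a-3p. Of these 5 miRNAs, 2 had positive and 3 negative log2 differences (median -0.17), and 0 of 5 passed the test. Of all 443 tested miRNAs, 211 had positive and 232 negative log2 differences (median -0.02), and 0 passed. miR-19b-3p, which has 2 places in the genome, 1 of them in the growth-associated miR-17-92 cluster, had a log2 difference of -0.82 ± 0.29 (SE). Its reads cannot be assigned to either place.

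In human pulmonary vascular cells the family acts through PPARγ on miR-424 and miR-503 in endothelium and on miR-204 in smooth muscle; miR-322 is the mouse counterpart of miR-424. Of these 3 miRNAs 0 passed. All 3 had negative log2 differences (median -0.22), as had 232 of all 443 tested miRNAs, and that of miR-503-5p was -0.0091. miR-322-5p had 72.0 and 94.7 TMM CPM in normal ulcer and 53.8 and 88.9 in diabetic ulcer, and miR-503-5p had 17.3 and 18.0 in normal ulcer and 9.49 and 25.6 in diabetic ulcer. For both, the normal and diabetic libraries overlapped. miR-204-5p had 23.3 and 21.7 TMM CPM in normal ulcer and 20.2 and 15.8 in diabetic ulcer. Its log2 difference was -0.32 ± 0.32 (SE). Both diabetic libraries lay below by TMM CPM, as for 53 (12%) of all 443 tested miRNAs. By library totals alone miR-204-5p overlapped between the groups, with 31.06 and 13.56 CPM in normal ulcer and 24.06 and 15.98 in diabetic ulcer.

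The base means in the authors' deposited table did not follow the labelled groups. Within 0.1%, the base mean that the table gives for the diabetic ulcer columns was 0.931 times the count of DU2 for 646 of 647 miRNAs. The base mean that it gives for the normal ulcer columns was 0.283 times NU1 plus 0.412 times NU2 plus 0.329 times DU1 for all 647, so DU1 stood on the normal side. In the authors' deposited table the fold change, normal over diabetic ulcer columns by the titles, was 1.06 for miR-130a-3p, 0.614 for miR-130b-3p, 0.607 for miR-130b-5p and 1.26 for miR-301a-3p. For miR-301a-3p the direction in the authors' deposited table was opposite to that of the labelled groups over 4 libraries, where diabetic ulcer was the higher.

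**Figure D4:**
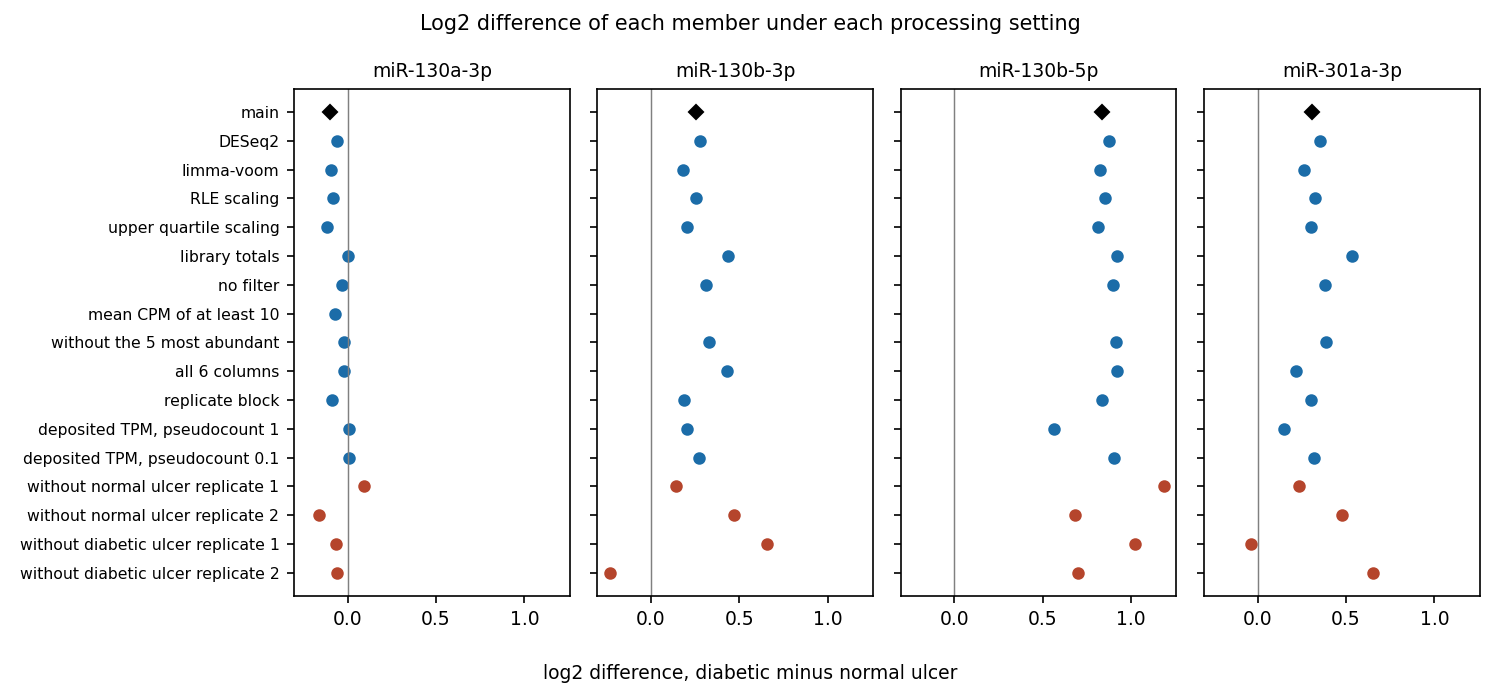
Log2 difference, diabetic minus normal ulcer, of the 4 members under the reported fit (black diamond), other tools, scalings, filters, columns and units (blue) and with 1 library left out (red). miR-130b-5p lies between 0.57 and 1.18, and each of the 3 guides lies on both sides of 0. Since miR-130b-5p was chosen for its difference in these same counts, nothing is read from its constant sign.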

How the data were processed

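Small RNA from skin was extracted with a mirVana kit for an Illumina platform, per the labels' protocols. The builds GRCm38 and mm10, names of the same mouse genome, are given per the submitters' processing notes; no source used here names the aligner or counting tool. The deposited count table holds raw read counts per mature miRNA. The authors' TPM values carry no length term, and the fold changes, log2 fold changes, p-values and q-values come from DESeq2, per the file headers, with base means and lengths read as other values.

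Counts of 4 libraries were fitted with edgeR 4.0.16 (R 4.3.3; TMM, filterByExpr, quasi-likelihood F test, group as the only term, Benjamini-Hochberg adjusted p under 0.05). Scaling by TMM gave factors of 1.33 (NU1), 0.624 (NU2), 1.19 (DU1) and 1.01 (DU2). SEs are the log2 difference over the square root of F. The code was tested on simulated data. Alternatives were DESeq2 1.42.0, limma-voom (limma 3.58.1), other scalings and filters, deposited TPM, all 6 columns, a block and leaving out libraries; 0 columns were left unmapped. Log2 CPM for likeness used a prior count of 2. Named miRNAs are the members, the listed relatives and the 3 nearest by likeness per member. Members and lists were chosen with earlier results of these data known. P-values weigh the difference between the groups against the spread between these samples, which may be technical.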

Additional observations from a re-analysis of the deposited data

How the results depend on the processing

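The count of miRNAs called was 0 in the reported fit and 0 to 6 when 1 library was left out. The 6 came without NU1 (miR-196a-5p, miR-196b-5p, miR-1b-5p, miR-208b-3p, miR-378c and miR-499-5p, named after their values were seen), where the remaining normal library is assumed to vary like the diabetic ones. With library totals 1 was called, miR-499-5p. None of these is in the family. The log2 difference ranged over the libraries left out from -0.16 to 0.090 for miR-130a-3p, from -0.23 to 0.66 for miR-130b-3p, from 0.68 to 1.18 for miR-130b-5p and from -0.040 to 0.65 for miR-301a-3p. Under the other alternatives it was -0.12 to 0.01, 0.18 to 0.43, 0.57 to 0.92 and 0.15 to 0.54 in that order. The difference in 5p share of miR-130b ranged from 4.71 to 17.8 points over the libraries left out. Library totals moved the median of all miRNAs from -0.02 to 0.17. A filter at a mean CPM of 10 left only miR-130a-3p of the members. With library number as a block 0 miRNAs were called, 20 at an unadjusted p under 0.05, and miR-130b-5p had 0.83; deviations of same-numbered libraries correlated at 0.44 across miRNAs, but nothing in the labels pairs them. Counts of 10 to 76 limit miR-130b and miR-301a.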
